A study of Homo sapiens with 22 samples.

Results

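The human HOX genes are the homeobox transcription factor genes of 4 chromosomal clusters. They were taken here as every symbol in the count tables made of HOX, a cluster letter from A to D and a number, which gave 39 genes of the 26485 symbols in each table. The data are gene-level read counts from 22 RNA-seq libraries labelled MDA-MB231, a widely used breast cancer cell line of the triple-negative kind, in 3 experiments on HDAC6, a mainly cytoplasmic deacetylase whose best known substrate is tubulin. Nexturastat A cells (n = 2) received the inhibitor at 7.65 µM for 2 days and stand against Ctrl cells (n = 2), which were given DMSO, with both sampled at day 2. HPOB cells (n = 3) and Tubastatin A cells (n = 3) stand against DMSO cells (n = 3), all at day 2, and the sources used here do not give the doses of these compounds. The titles of the Tubastatin A libraries carry the letters TSA, and the treatment label was followed. Cells with the hairpins shHDAC6-1 and shHDAC6-2 (n = 3 each, genotype HDAC6 knockdown) stand against cells with the control hairpin shCtrl (n = 3, labelled WT), all at day 0. The inhibitor libraries and their controls are labelled WT, and the labels do not say whether hairpin cells were clones or pools, nor whether replicates were separate cultures. P-values therefore measure the spread between libraries, which may be technical.

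HOX proteins give cells of the embryo their position along the head-to-tail axis, and the order of the genes in a cluster follows the order of their expression along that axis: low numbers act towards the head, high numbers towards the tail and in the limb ends. Adult cells keep part of this positional code. Polycomb complexes (PRC2, which methylates histone H3 at lysine 27, and PRC1) hold the unused genes silent, and trithorax or COMPASS complexes keep the used ones active. HOX proteins bind DNA together with the TALE cofactors PBX, MEIS and PKNOX.

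In GENCODE 29 on GRCh38, the HOXA genes lie on chromosome 7 (27092993 to 27200106, minus strand), the HOXB genes on chromosome 17 (48528526 to 48729178, minus strand), the HOXC genes on chromosome 12 (53938765 to 54056030, plus strand) and the HOXD genes on chromosome 2 (176092891 to 176190907, plus strand). All 39 have a gene model. In 14 of them over 10% of the exon bases also belong to another listed gene, with the largest shares in HOXA7 (62.5%, with HOXA-AS3), HOXA6 (39.3%, with HOXA-AS3) and HOXB6 (33.0%, with HOXB-AS3 and HOXB3). Sharing on the same strand with any annotated gene, listed or not, was highest in HOXD4 (80.5%), HOXD3 (62.2%) and HOXC5 (33.85%). How the counting treated strand and shared bases is not given in the sources used here, and so reads of these genes and of their neighbours may not be fully separated.

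The HOXD cluster held a clear boundary between HOXD4, expressed in all control cells, and the block from HOXD8 to HOXD11, which only shCtrl replicates 1 and 2 among the control libraries expressed. The 250 bases before the annotated start of 3 genes on either side of that boundary are shown, as given by RefSeq on GRCh38.p14, with every CG pair, the substrate of DNA methylation, in capitals. They are HOXD4 (chr2:176151300-176151549), HOXD10 (chr2:176116528-176116777) and HOXD13 (chr2:176092471-176092720), all on the plus strand.
HOXD4: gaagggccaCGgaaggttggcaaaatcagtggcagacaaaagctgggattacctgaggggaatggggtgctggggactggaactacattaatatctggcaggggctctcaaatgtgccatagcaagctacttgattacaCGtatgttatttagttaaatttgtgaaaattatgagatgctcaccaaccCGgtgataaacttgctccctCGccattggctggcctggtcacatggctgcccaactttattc
HOXD10: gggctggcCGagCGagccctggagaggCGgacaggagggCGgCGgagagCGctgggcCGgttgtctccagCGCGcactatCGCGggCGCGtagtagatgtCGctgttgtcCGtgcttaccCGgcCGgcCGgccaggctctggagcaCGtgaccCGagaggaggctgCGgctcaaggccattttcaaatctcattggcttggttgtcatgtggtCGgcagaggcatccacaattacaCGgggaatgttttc
HOXD13: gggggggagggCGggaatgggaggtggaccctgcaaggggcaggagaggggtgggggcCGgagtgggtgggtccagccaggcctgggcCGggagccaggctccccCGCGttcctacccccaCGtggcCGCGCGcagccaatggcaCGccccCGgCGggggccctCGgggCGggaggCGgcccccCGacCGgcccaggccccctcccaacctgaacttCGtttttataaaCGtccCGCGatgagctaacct
The HOXD4 stretch holds 4 CG pairs, the HOXD10 stretch 23 and the HOXD13 stretch 21. RefSeq stretches were found for 20 of the 39 genes. These make 27 entries: some genes, above all HOXA3, have several starts, and HOXC4 and HOXC5 share a stretch that is entered for each. The median over the entries was 19 CG pairs with a range of 0 to 40, against a median of 11 over all 35114 human stretches. The letters TGATTNAT, known as a PBX-HOX site, occurred on either strand in 2 of the 27 entries (2.5% of all human stretches), TTTATNG, known for CDX and tail-side HOX proteins, in 7 (8.9% of all), and TATAAA, the TATA box, in 5 (10.7% of all). The stretch of HOXC4 and HOXC5 is counted for each gene among the 7. The HOXD13 stretch holds TATAAA, and the HOXD4 and HOXD10 stretches hold none of these letters. No methylation was measured in this study.

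Library totals were 31238740 to 41261706 counts in the experiment with DMSO, 58004430 to 61551670 in the one with Ctrl and 50949621 to 85942315 in the hairpin experiment. Levels are counts scaled to the library total (CPM), and levels of different genes are compared per kilobase of merged exons. The labelled cell type was checked with its markers. Of the 5 epithelial markers, KRT8 and KRT18 had at least 159.7 and 82.6 CPM in every library. The 5 together (with KRT19, EPCAM and CDH1) had 367.9 to 397.8 CPM in shCtrl replicates 1 and 2, 1150 CPM in shCtrl replicate 3, where CDH1 had 0 counts, 1404 to 1468 CPM in DMSO and 1413 to 1468 CPM in Ctrl. The mesenchymal gene VIM, known to be high in MDA-MB231, had at least 643.9 CPM throughout. CDKN2A, a cell cycle inhibitor gene that MDA-MB231 is known to lack, had 149.8 and 151.6 CPM in shCtrl replicates 1 and 2, against 0 counts in shCtrl replicate 3, DMSO and Ctrl. Of 4 genes listed as markers of embryonic or kidney lines (IRS4, PAX2, LIN28B and IGF2BP1), all 4 were above 1 CPM in shCtrl replicates 1 and 2, with a sum of 731 to 803 CPM, and all 4 had 0 counts in shCtrl replicate 3. The sum was at most 0.107 CPM in DMSO and 0.228 CPM in Ctrl. NKX2-1, a lung and thyroid transcription factor, had a mean of 17.2 CPM in shCtrl replicates 1 and 2 and 60.3 CPM in shCtrl replicate 3. It had 0.776 to 1.52 CPM in DMSO and 52.5 and 64.6 CPM in Ctrl. MMP1, a collagenase known to be high in MDA-MB231, had 196 to 204 CPM in DMSO, against 0.615 and 1.04 CPM in Ctrl. Its mean was 0.411 CPM in shCtrl replicates 1 and 2 and 0.382 CPM over all 3 shCtrl libraries. CD44, listed as present in MDA-MB231, had a mean of 21.25 CPM in shCtrl replicates 1 and 2, 613.8 CPM in DMSO and 336.9 CPM in Ctrl. The control cells thus differ in more than HOX genes. CDKN2A and MMP1 go against the label in shCtrl replicates 1 and 2, where CD44 was also lower than in DMSO and Ctrl. MMP1 goes against the label in Ctrl too, as does its mean over all 3 shCtrl libraries. The lung gene NKX2-1 was high in Ctrl and shCtrl replicate 3, and present at a lower level in shCtrl replicates 1 and 2. The sets of control libraries are called by their labels below. What distinguishes these sets beyond their labels was not tested, and in bulk samples fewer cells of a type and less RNA per cell cannot be told apart.

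A gene is called expressed here at a mean of 1 CPM or more, low from 0.1 to 1 CPM and near silent below 0.1 CPM. By that measure shCtrl replicates 1 and 2 expressed 37 of the 39 HOX genes, shCtrl replicate 3 expressed 10, DMSO expressed 6 and Ctrl expressed 13. The summed HOX level was 977 to 983 CPM in shCtrl replicates 1 and 2, 59.4 CPM in shCtrl replicate 3, 33.0 to 37.4 CPM in DMSO and 74.2 to 80.7 CPM in Ctrl. HOXB3, HOXB9, HOXC6, HOXD1, HOXD3 and HOXD4 were expressed in all 4 sets. HOXB1, a hindbrain gene in the embryo, was near silent in all 4. A block of 17 genes was expressed in shCtrl replicates 1 and 2 and near silent in the other 3 sets, among them HOXA5, HOXA9, HOXA10, HOXA11, HOXB13, HOXC11, HOXC12 and HOXD8 to HOXD11. HOXC12 had 0.929 and 2.58 CPM there, on either side of the limit for expressed. These counts describe libraries that were set apart with earlier results known, so no test is given between the shCtrl replicates.

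**Figure D1:**
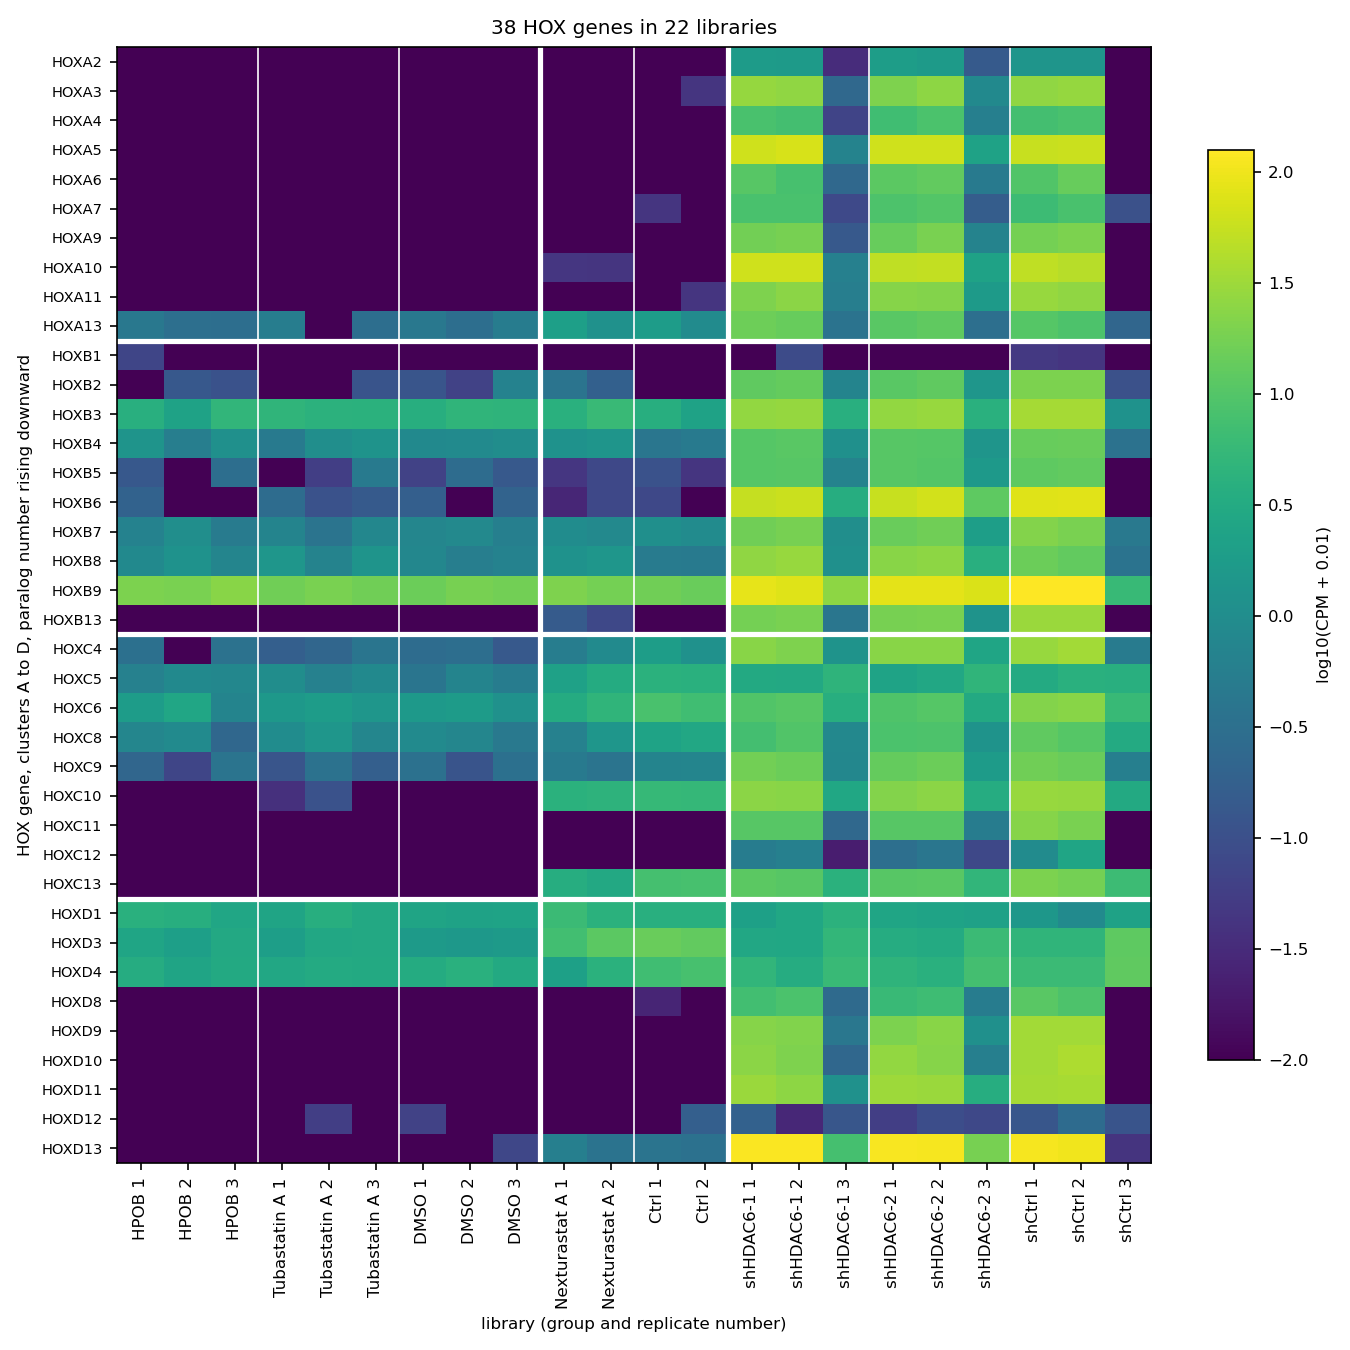
Level of 38 HOX genes (rows, clusters A to D) in each of the 22 libraries (columns), as log10(CPM + 0.01), with thick white lines between experiments and between clusters. The column pattern of shCtrl replicates 1 and 2 and of replicates 1 and 2 of both hairpins, with nearly all rows bright, is not shared by replicate 3 of any hairpin group or by any inhibitor experiment.

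HOXD10, which patterns the hindlimb and the lower spinal cord, shows the contrast at its simplest. It had 24.3, 20.4 and 0.221 CPM in the 3 shHDAC6-1 libraries, 26.8, 23.1 and 0.577 CPM in the 3 shHDAC6-2 libraries, and 34.1, 38.98 and 0 CPM in the 3 shCtrl libraries. No read was assigned to it in any HPOB, Tubastatin A, DMSO, Nexturastat A or Ctrl library. A count of 0 allows up to 0.0463 CPM in shCtrl replicate 3, 0.0285 CPM over DMSO and 0.0246 CPM over Ctrl (3 counts; counting error only). HOXD10 was thus high in the first and second replicates of all 3 hairpin groups and far lower in every replicate 3.

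The HOXA cluster was the emptiest one outside shCtrl replicates 1 and 2. HOXA13, the gene at its tail end and a regulator of digits and the urogenital tract, was the only HOXA gene above the near silent limit in the other sets, with 0.216 CPM in shCtrl replicate 3, 0.294 to 0.512 CPM in DMSO and 1.81 and 0.942 CPM in Ctrl. HOXA2 to HOXA6, HOXA9 and HOXA10 had 0 counts in shCtrl replicate 3 and in DMSO, and in Ctrl they had at most 0.0325 CPM (HOXA3). In shCtrl replicates 1 and 2 all 11 were expressed. HOXA5, which acts in lung and trunk patterning, was the highest per kilobase at 34.2 CPM per kb (57.9 and 58.7 CPM), followed by HOXA10, a uterine and blood regulator, at 13.0 CPM per kb (50.2 and 46.4 CPM) and HOXA11 close to it (29.5 and 25.8 CPM). HOXA6 at 9.31 CPM per kb (9.74 and 14.2 CPM) came next.

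The HOXB cluster was active in every set, with HOXB9 at its head. HOXB9, a thoracic-level gene, had 123 and 123 CPM in shCtrl replicates 1 and 2, 5.77 CPM in shCtrl replicate 3, 15.1, 18.1 and 17.2 CPM in DMSO and 16.1 and 14.4 CPM in Ctrl. It was the highest HOXB gene per kilobase in all 4 sets, at 47.6, 2.23, 6.51 and 5.93 CPM per kb in that order. HOXB3, a hindbrain gene, was the next that all sets expressed, with 34.7 and 34.8 CPM in shCtrl replicates 1 and 2, 1.20 CPM in shCtrl replicate 3, 3.74 to 4.84 CPM in DMSO and 3.74 and 2.29 CPM in Ctrl. HOXB7 had 21.8 and 18.7 CPM in shCtrl replicates 1 and 2, 0.447 CPM in shCtrl replicate 3, 0.576 to 0.830 CPM in DMSO and 1.10 and 0.942 CPM in Ctrl, so that it crosses the limit for expressed in Ctrl by little. HOXB4 and HOXB8 were low in the other 3 sets. HOXB6 (80.0 and 81.1 CPM) and HOXB13, known from prostate (30.1 and 30.2 CPM), were high in shCtrl replicates 1 and 2. In shCtrl replicate 3 both had 0 counts.

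The HOXC cluster separated DMSO from Ctrl. HOXC13, a hair and nail gene at the tail end of the cluster, had 19.8 and 17.7 CPM in shCtrl replicates 1 and 2, 6.57 CPM in shCtrl replicate 3, 0 counts in DMSO and 7.86 and 8.16 CPM in Ctrl. HOXC10 followed the same pattern, with 29.3 and 28.1 CPM, then 3.12 CPM, 0 counts and 5.55 and 5.28 CPM in those sets. HOXC5, a neighbour towards the head end, had 3.24 and 4.04 CPM in shCtrl replicates 1 and 2, 3.82 CPM in shCtrl replicate 3, 0.380 to 0.696 CPM in DMSO and 4.09 and 3.95 CPM in Ctrl, and so was not higher in the first of these sets. HOXC6, a thoracic gene, had 21.8 and 23.2 CPM in shCtrl replicates 1 and 2, 5.69 CPM in shCtrl replicate 3, 1.18 to 1.77 CPM in DMSO and 8.40 and 6.87 CPM in Ctrl. HOXC8 had 12.6 and 10.3 CPM, 3.25 CPM, 0.448 to 0.896 CPM and 2.36 and 2.86 CPM in the same sets, while HOXC4 was expressed in shCtrl replicates 1 and 2 (29.5 and 33.8 CPM) and in Ctrl (1.93 and 1.17 CPM). Per kilobase, HOXC10 at 12.3, HOXC4 at 11.6 and HOXC9 at 9.10 CPM per kb led the cluster in shCtrl replicates 1 and 2. HOXC13 led it in shCtrl replicate 3 (2.71 CPM per kb) and in Ctrl (3.30 CPM per kb), and HOXC6 in DMSO (0.429 CPM per kb). The genes HOXC11 and HOXC12, which lie between HOXC10 and HOXC13, had 0 counts outside shCtrl replicates 1 and 2, so activity along the cluster in shCtrl replicate 3 and in Ctrl stopped after HOXC10 and resumed at HOXC13.

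In the HOXD cluster the order between the sets was turned for the genes at the head end. HOXD3, active in the neck region, had 4.82 and 4.82 CPM in shCtrl replicates 1 and 2, 12.2 CPM in shCtrl replicate 3, 1.55 to 1.71 CPM in DMSO and 14.6 and 13.2 CPM in Ctrl. HOXD4 had 6.24 and 6.13 CPM in shCtrl replicates 1 and 2, 12.7 CPM in shCtrl replicate 3, 3.07 to 4.07 CPM in DMSO and 6.98 and 8.01 CPM in Ctrl. HOXD1 had 1.48 and 0.920 CPM, 2.33 CPM, 2.28 to 2.44 CPM and 3.92 and 3.82 CPM in those sets. These 3 genes were therefore no higher in shCtrl replicates 1 and 2 than in shCtrl replicate 3 or Ctrl, unlike nearly all other HOX genes. At the other end, HOXD13, the main regulator of digits, had 111 and 103 CPM in shCtrl replicates 1 and 2, where it and HOXB9 were the highest HOX genes per kilobase (47.8 and 47.6 CPM per kb). It had 0.0309 CPM in shCtrl replicate 3, at most 0.0640 CPM in DMSO and 0.365 and 0.325 CPM in Ctrl. HOXD9 (34.1 and 33.7 CPM) and HOXD11 (34.9 and 36.8 CPM) had levels of the same order as HOXD10 in shCtrl replicates 1 and 2 and 0 counts in shCtrl replicate 3, DMSO and Ctrl. HOXD4 was the highest HOX gene per kilobase in shCtrl replicate 3, at 8.64 CPM per kb.

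**Figure D2:**
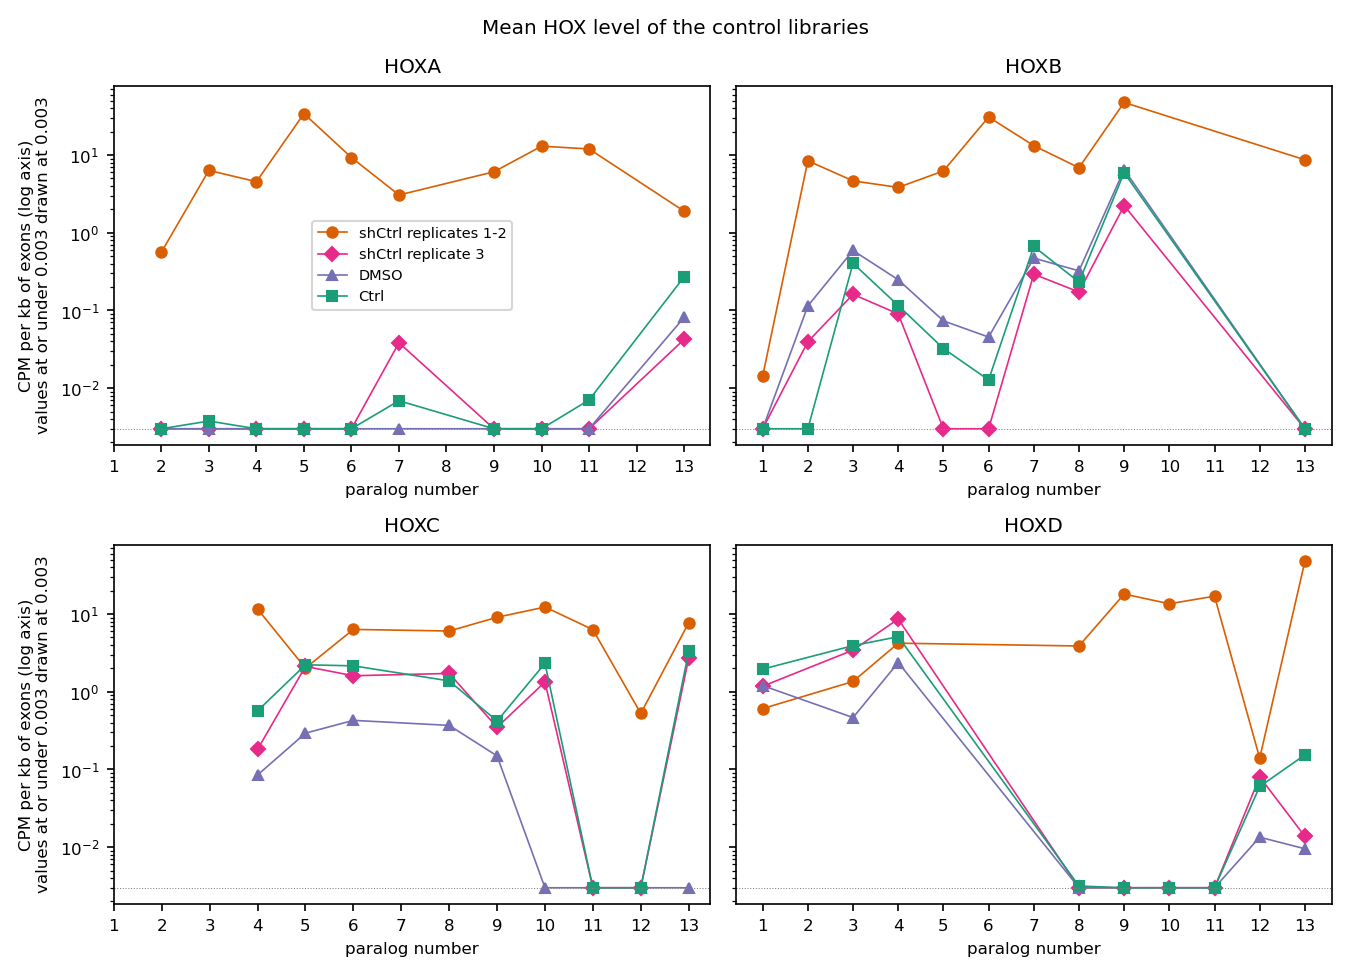
Mean level per kilobase of exons (log axis, CPM per kb) against the paralog number of each gene plotted, in 4 panels for clusters A to D, for shCtrl replicates 1 and 2 (circles), shCtrl replicate 3 (diamonds), DMSO (triangles) and Ctrl (squares); values at or under 0.003 are drawn on the dotted line. The circles stand above the other symbols except at HOXC5 and from HOXD1 to HOXD4, and the triangles fall to the dotted line at HOXC10 and HOXC13, where the diamonds and squares lie between 1.34 and 3.30 CPM per kb.

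DMSO cells and Ctrl cells carry the same treatment label, so their comparison asks how far the vehicle cells of the inhibitor experiments differ. DMSO libraries had lower levels of the HOXC and HOXD genes and of HOXA13, and higher levels of HOXB3 and HOXB4. Of the 17 HOX genes that passed the filter on low counts, 14 were called by edgeR (Benjamini-Hochberg adjusted p under 0.05), 2 higher and 12 lower, in a comparison where 74% of 15585 genes were called (36.8% higher and 37.2% lower). The median log2 fold change was -1.74 over the HOX genes tested and 0.00 over all genes tested. All 7 tested HOXC genes and all 4 tested HOXD genes stood lower in DMSO than in Ctrl. HOXC10 and HOXC13 had 0 counts in DMSO and HOXD13 at most 2 in a library, so these genes passed the filter only through Ctrl. Their direction was thus fixed in advance, and the 12 lower calls and the median include them. HOXC13 was at least 281-fold lower and HOXC10 at least 190-fold lower in DMSO, taking 3 counts over the DMSO group as the floor for their 0 counts. HOXD3 had a log2 fold change of -3.08 ± 0.17 (SE, edgeR adjusted p = 1.02e-15), HOXC5 of -2.92 ± 0.30 (7.94e-10), HOXC6 of -2.32 ± 0.21 (6.30e-11) and HOXD4 of -1.10 ± 0.18 (3.52e-06). HOXB4, a regulator of blood stem cells, had 0.868, 0.910 and 1.02 CPM in DMSO, against 0.399 and 0.471 CPM in Ctrl (log2 fold change 1.09 ± 0.46, edgeR adjusted p = 0.0331), and HOXB3 had a log2 fold change of 0.55 ± 0.23 (0.0307). These 2 calls were lost with DESeq2 and with GC and length trends removed. Experiment and cells cannot be told apart in this comparison.

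Nexturastat A lowered several HOXC genes and HOXD4 and raised 3 HOXB genes relative to Ctrl. Of 18 HOX genes tested, 7 were called by edgeR, 3 higher and 4 lower, where 36.6% of all 16678 genes tested were called (21.1% higher and 15.5% lower), so the 38.9% called among the HOX genes lies near the share of all genes. The median log2 fold change was -0.34 over the HOX genes tested and 0.03 over all genes tested. The remaining 21 HOX genes did not pass the filter on low counts.

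HOXC13 had 3.62 and 2.998 CPM with Nexturastat A, against 7.86 and 8.16 CPM in Ctrl (log2 fold change -1.37 ± 0.22, edgeR adjusted p = 0.00525). Both treated libraries lie below both Ctrl libraries, and this was the lowest p among the HOX genes. HOXC8, a thoracic gene, had 0.621 and 1.40 CPM with Nexturastat A, against 2.36 and 2.86 CPM in Ctrl (-1.46 ± 0.43, edgeR adjusted p = 0.0363). HOXC6 had 3.38 and 4.87 CPM with Nexturastat A, against 8.40 and 6.87 CPM in Ctrl (-0.98 ± 0.26, edgeR adjusted p = 0.0263). The treated libraries differed from each other by more than the controls did for HOXC8, but neither gene's groups overlapped. The 7 tested HOXC genes had a median log2 fold change of -0.98 with a range of -1.46 to -0.42, and 3 of them were called. HOXD4 had 2.12 and 4.14 CPM with Nexturastat A, against 6.98 and 8.01 CPM in Ctrl (-1.35 ± 0.34, edgeR adjusted p = 0.0209), while HOXD3 and HOXD1, its neighbours on the head side, were not called.

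On the HOXB side, HOXB4 had 1.21 and 1.35 CPM with Nexturastat A, against 0.399 and 0.471 CPM in Ctrl (1.46 ± 0.40, edgeR adjusted p = 0.0288). HOXB8 had 1.22 and 1.40 CPM with Nexturastat A, against 0.498 and 0.455 CPM in Ctrl (1.37 ± 0.40, edgeR adjusted p = 0.0332). HOXB2, a hindbrain gene, had 31 counts in the Nexturastat A libraries and 0 counts in Ctrl, which makes it at least 10.7-fold higher with the inhibitor (edgeR adjusted p = 0.0157). HOXB2 passed the filter only through the inhibitor libraries, so its direction was fixed in advance. Both HOXB4 and HOXB8 rose to just over 1 CPM, and neither approached its level in shCtrl replicates 1 and 2. HOXB9 had 20.6 and 17.5 CPM with Nexturastat A, against 16.1 and 14.4 CPM in Ctrl, and was not called. Of the block of 17 genes near silent outside shCtrl replicates 1 and 2, none passed the filter; HOXB13 had 12 counts and HOXA10 had 4 counts with Nexturastat A, against 0 in Ctrl, and HOXD10 had none in either group.

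The Nexturastat A calls rest on both Ctrl libraries: 1 HOX gene was called without Ctrl replicate 1 and 0 without Ctrl replicate 2, where the calls over all genes fell too, to 1781 and 1921 genes. With the trends of each library on GC content and length removed, the median over all genes tested moved to -0.23 and that over the HOX genes to -0.94, and 10 HOX genes were called, 1 higher (HOXB2) and 9 lower, against 3 higher and 4 lower without the removal. Over all genes 48.4% were then called, 16.0% higher and 32.4% lower. HOXB4 and HOXB8 were no longer called after the removal. HDAC6 itself had 27.9 and 26.99 CPM with Nexturastat A, against 30.1 and 28.6 CPM in Ctrl, and was not called. Other cell markers moved too: 4 lung markers had a sum of 35.3 to 42.6 CPM with Nexturastat A, against 212.7 to 311.3 CPM in Ctrl, and the 5 epithelial markers one of 2251 to 2811 CPM, against 1413 to 1468 CPM. Their part in the HOX values was not tested.

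No HOX gene was called with HPOB or with Tubastatin A relative to DMSO. With HPOB, 0 of 14 HOX genes tested passed (3 at an unadjusted p under 0.05), where 0.0261% of 15338 genes were called (4 genes, with 1588 genes or 10.4% at an unadjusted p under 0.05). With Tubastatin A, 0 of 14 passed (1 at an unadjusted p under 0.05), and edgeR called 0% of the 15338 genes (757 or 4.94% at an unadjusted p under 0.05). DESeq2 also called none of the HOX genes with either compound. The medians over the HOX genes tested were 0.05 with HPOB and 0.03 with Tubastatin A, and 0.01 over all genes in both.

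HOXD3 had the lowest p with both compounds. It had 2.58, 2.02 and 2.98 CPM with HPOB and 1.98, 2.81 and 2.94 CPM with Tubastatin A, against 1.71, 1.55 and 1.70 CPM in DMSO. All 6 treated libraries lie above the 3 DMSO libraries, which the treatments share as controls. The log2 fold change was 0.61 with HPOB (95% interval 0.08 to 1.15, edgeR adjusted p = 0.467) and 0.64 with Tubastatin A (0.10 to 1.17, adjusted p = 0.857). HOXD1 had 3.92, 3.70 and 2.66 CPM with HPOB and 2.49, 3.68 and 3.02 CPM with Tubastatin A, against 2.44, 2.28 and 2.40 CPM in DMSO (0.52, interval 0.03 to 1.01, with HPOB, and 0.37, interval -0.12 to 0.85, with Tubastatin A; edgeR adjusted p = 0.469 and 0.857). HOXB9 had a log2 fold change of 0.30 with HPOB (interval 0.02 to 0.57, edgeR adjusted p = 0.469) and 0.01 with Tubastatin A (-0.26 to 0.29, 0.988), and HOXD4 of -0.22 (-0.66 to 0.22, 0.666) and -0.20 (-0.63 to 0.24, 0.866). The 17 genes near silent outside shCtrl replicates 1 and 2 had 0 counts in all 9 libraries of this experiment. HOXC13 too had 0 counts in all 9, so a loss of it could not be seen here. Nexturastat A, HPOB and Tubastatin A are hydroxamic acids made to favour HDAC6. Doses of HPOB and Tubastatin A are not given and the control cells differed, so the responses stand side by side and were not compared.

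**Figure D3:**
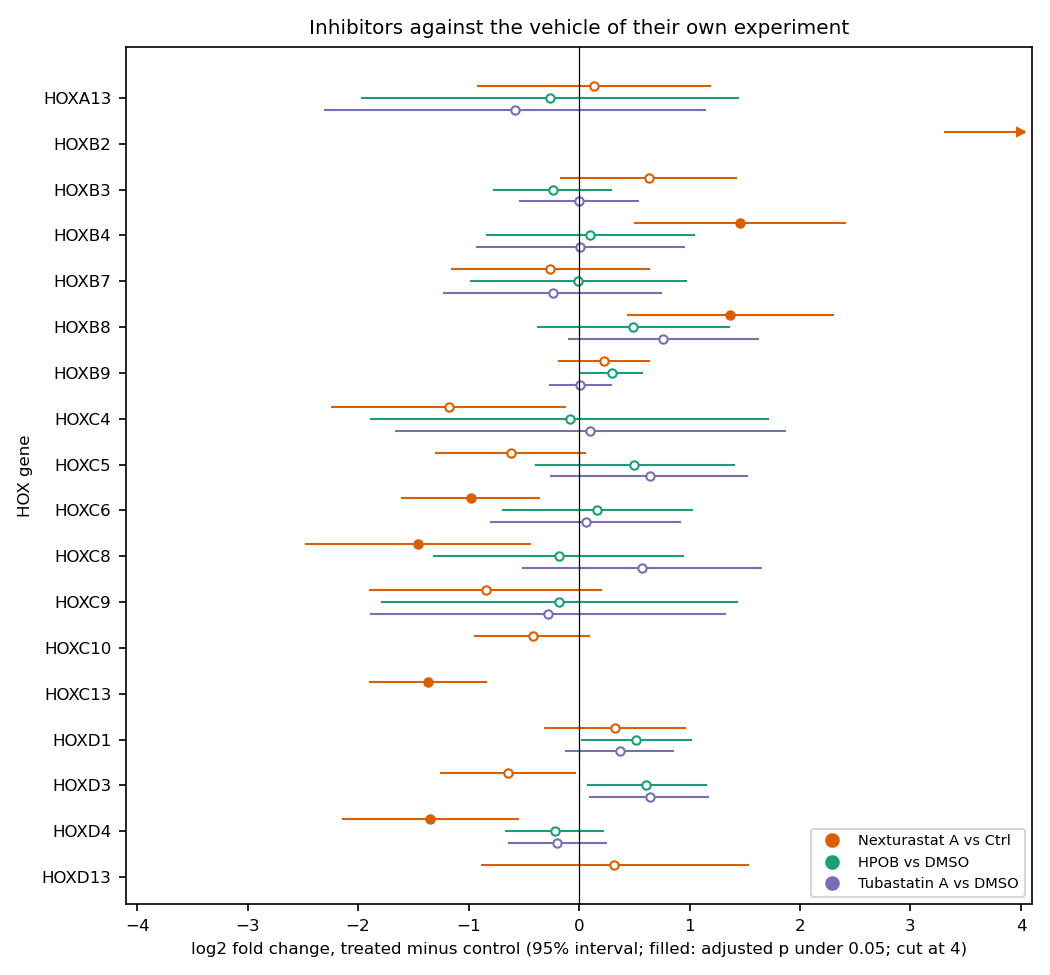
Log2 fold change of each tested HOX gene (rows) with its 95% interval for Nexturastat A against Ctrl and for HPOB and Tubastatin A against DMSO; filled points have an edgeR adjusted p under 0.05. HOXC6, HOXC8, HOXC13 and HOXD4 are filled left of 0 and HOXB2, HOXB4 and HOXB8 right of 0 with Nexturastat A, HOXB2 is an arrow because its fitted change lies beyond the axis and rests on 0 counts in Ctrl, and every HPOB and Tubastatin A point is open.

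The hairpin target was checked first. HDAC6 had 12.6, 11.8 and 9.20 CPM in the shHDAC6-1 libraries and 12.2, 13.6 and 11.6 CPM in the shHDAC6-2 libraries, against 47.8, 54.6 and 24.9 CPM in the shCtrl libraries, so every knockdown library lies below every shCtrl library. Over all 9 libraries the HOX genes gave no call: 37 were tested with each hairpin, and edgeR called 0 of them (none at an unadjusted p under 0.05) among 0% of 17653 genes called, with 191 genes under an unadjusted p of 0.05 for shHDAC6-1 and 219 for shHDAC6-2. The libraries of replicate 3 lie far from the others. HDAC6 itself was not called in this fit with either hairpin (log2 fold change -1.79 and -1.64). The lack of HOX calls therefore does not show that HOX genes were unchanged. HOXC6 had 9.60, 10.9 and 3.64 CPM with shHDAC6-1 and 9.35, 10.6 and 3.06 CPM with shHDAC6-2, against 21.8, 23.2 and 5.69 CPM with shCtrl, lower in each hairpin replicate than in the shCtrl replicate of the same number. Its log2 fold change was -0.97 (95% interval -2.45 to 0.50) and -1.05 (-2.53 to 0.42), with an edgeR adjusted p of 1.0 for both. HOXD1 had log2 fold changes of 1.10 (-0.30 to 2.51) and 0.67 (-0.73 to 2.07), HOXD3 of -0.87 (-2.47 to 0.74) with shHDAC6-1, and HOXC13 of -0.60 (-1.82 to 0.63) with shHDAC6-2. For HOXD10 the intervals ran from -5.40 to 4.11 and from -5.22 to 4.27.

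Within replicates 1 and 2, both hairpins lowered HOX genes of clusters B, C and D and raised a few of cluster A together with HOXB8 and HOXD1. With shHDAC6-1, 17 of 38 HOX genes tested were called by edgeR, 5 higher and 12 lower, where 30.5% of 17702 genes were called (15.3% higher and 15.2% lower). With shHDAC6-2, 14 of 38 were called, 4 higher and 10 lower, where 27.6% were called (14.4% higher and 13.2% lower). The median log2 fold change of the HOX genes tested was -0.26 with shHDAC6-1 and -0.24 with shHDAC6-2, against -0.02 and 0.00 over all genes tested. Both hairpins share the same 2 shCtrl libraries, so their values are not independent. Restricting the fit to these replicates was a choice made with the data known. The 4 markers of embryonic or kidney lines had a sum of 936 to 1133 CPM with shHDAC6-1 and 1157 to 1232 CPM with shHDAC6-2, against 731 to 803 CPM with shCtrl, and their part in the HOX values was not tested.

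HOXC12, near the tail end of its cluster, had the lowest fold change, with 0.510 and 0.611 CPM for shHDAC6-1 and 0.299 and 0.392 CPM for shHDAC6-2, against 0.929 and 2.58 CPM for shCtrl (log2 fold change -1.58 ± 0.46 and -2.25 ± 0.48, edgeR adjusted p = 0.0117 and 0.00102). The shCtrl libraries differ widely for this gene. HOXC6 (values above) fell by 1.06 ± 0.15 and 1.08 ± 0.15 on the log2 scale (edgeR adjusted p = 1.39e-05 and 1.08e-05), with libraries that agree closely within each group. HOXC11 had 10.8 and 10.99 CPM for shHDAC6-1 and 10.7 and 10.6 CPM for shHDAC6-2, against 22.3 and 18.9 CPM for shCtrl (-0.84 ± 0.15 and -0.85 ± 0.15, edgeR adjusted p = 0.000147 and 0.000132). HOXC13 fell by 0.66 ± 0.15 with each hairpin (edgeR adjusted p = 0.0016 and 0.00162). It had 11.8 and 10.8 CPM for shHDAC6-1 and 10.8 and 11.4 CPM for shHDAC6-2, against 19.8 and 17.7 CPM for shCtrl. The tail-side genes HOXC11, HOXC12 and HOXC13 and, further towards the head, HOXC6 therefore stood lower with both hairpins. HOXC8, HOXC9 and HOXC10, which lie between HOXC6 and HOXC11, were not called.

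HOXD3 had 2.90 and 2.79 CPM for shHDAC6-1, against 4.82 and 4.82 CPM for shCtrl (-0.68 ± 0.21, edgeR adjusted p = 0.018). It was not called with shHDAC6-2, which had 3.42 and 3.18 CPM. HOXD9 was called lower with both hairpins. HOXD10 was also called lower with both, by 0.63 ± 0.14 and 0.46 ± 0.14 on the log2 scale (edgeR adjusted p = 0.0015 and 0.0172). HOXB13, a regulator of prostate identity, had 17.2 and 18.8 CPM for shHDAC6-1 and 18.4 and 18.9 CPM for shHDAC6-2, against 30.1 and 30.2 CPM for shCtrl (-0.66 ± 0.14 and -0.60 ± 0.13, edgeR adjusted p = 0.00068 and 0.00181). HOXB2 had 12.6 and 13.6 CPM for shHDAC6-1 and 11.05 and 12.4 CPM for shHDAC6-2, against 19.8 and 19.6 CPM for shCtrl (-0.51 ± 0.15 and -0.65 ± 0.15, edgeR adjusted p = 0.00973 and 0.0016). HOXB9 was called lower with both as well, HOXB6 and HOXC4 with shHDAC6-1 and HOXD8 with shHDAC6-2. Whether any HOX gene differs between the hairpins was not tested.

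Against this direction, HOXB8 had 25.9 and 29.5 CPM for shHDAC6-1 and 23.7 and 25.5 CPM for shHDAC6-2, against 14.99 and 13.3 CPM for shCtrl (1.05 ± 0.14 and 0.90 ± 0.14, edgeR adjusted p = 6.65e-06 and 4.72e-05). It lies between HOXB7, which was not called, and HOXB9, which was called lower. HOXD1, at the head end of its cluster, had 2.12 and 2.77 CPM for shHDAC6-1 and 2.53 and 2.42 CPM for shHDAC6-2, against 1.48 and 0.920 CPM for shCtrl (1.11 ± 0.29 and 1.15 ± 0.29, edgeR adjusted p = 0.00563 and 0.00464). HOXA13 had 15.8 and 14.2 CPM for shHDAC6-1 and 11.3 and 12.7 CPM for shHDAC6-2, against 10.4 and 8.86 CPM for shCtrl, called with shHDAC6-1 only (0.72 ± 0.16, edgeR adjusted p = 0.00115). HOXA10 was called higher with shHDAC6-1 (0.47) and HOXA7 with shHDAC6-2 (0.47). No HOXA gene was called lower and no HOXC gene higher with either hairpin.

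**Figure D4:**
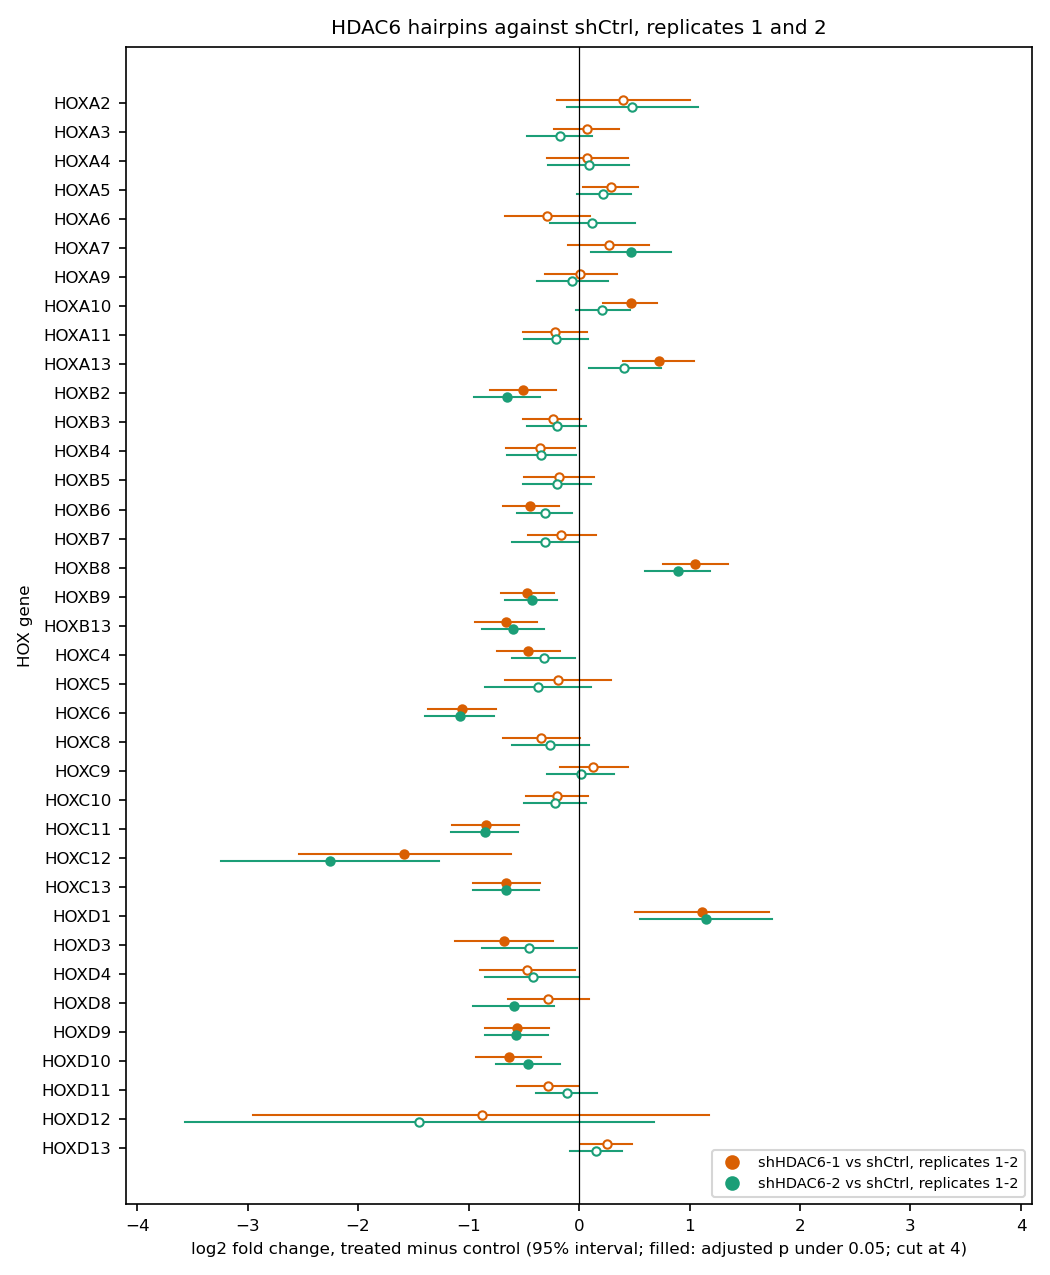
Log2 fold change of 37 tested HOX genes (rows) with its 95% interval for shHDAC6-1 and shHDAC6-2 against shCtrl in replicates 1 and 2; filled points have an edgeR adjusted p under 0.05. Filled points of clusters B, C and D lie left of 0 except HOXB8 and HOXD1, and those of cluster A lie right of 0.

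Fold changes in replicates 1 and 2 moved with GC content across genes. Spearman's rho of log2 fold change with GC content was -0.379 for shHDAC6-1 and -0.268 for shHDAC6-2, a description over genes, which are not replicates. HOX transcripts had a median GC content of 55.3%, against 48.9% for all matched protein-coding genes. With trends on GC content and length removed, shHDAC6-1 gave 10 higher and 9 lower HOX calls, against 5 higher and 12 lower without the removal, and 14 of the 17 calls were kept. ShHDAC6-2 gave 9 higher and 10 lower, against 4 higher and 10 lower, and 13 of the 14 calls were kept. Over all genes, 42.7% were then called for shHDAC6-1 (26.1% higher, 16.6% lower) and 42.0% for shHDAC6-2 (24.9% higher, 17.1% lower). The median log2 fold change of the HOX genes tested moved from -0.26 to -0.03 with shHDAC6-1 and from -0.24 to -0.14 with shHDAC6-2. After the removal the medians over all genes tested were 0.04 and 0.03. The calls lost were HOXB2, HOXD3 and HOXD9 for shHDAC6-1 and HOXD8 for shHDAC6-2. HOXC6, HOXC11, HOXC12, HOXC13, HOXB13, HOXB9 and HOXD10 stayed called lower, and HOXB8 and HOXD1 higher, with both hairpins. Without shHDAC6-1 replicate 2, 9 HOX genes were called for that hairpin, with 17.2% called over all genes.

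Replicate 3 of each HDAC6 hairpin held low levels of genes that were near silent in shCtrl replicate 3, most of them higher than there. HOXA7 had 6 counts both in shHDAC6-1 replicate 3 and in shCtrl replicate 3 (0.0698 and 0.0925 CPM), and so was not higher with that hairpin. HOXA2 rests on 2 counts in shHDAC6-1 replicate 3. In all, 20 HOX genes were expressed in replicates 1 and 2 of each HDAC6 hairpin and near silent in shCtrl replicate 3, 16 of them also near silent in DMSO and Ctrl. In shHDAC6-1 replicate 3 these 20 stood at 0.725% (HOXA9) to 6.41% (HOXB6) of their mean level in shHDAC6-1 replicates 1 and 2, with a median of 2.03%. In shHDAC6-2 replicate 3 they stood at 1.60% (HOXA7) to 20.2% (HOXB6), with a median of 6.03%. HOXD13 had 7.70 CPM in shHDAC6-1 replicate 3 and 18.4 CPM in shHDAC6-2 replicate 3, against 0.0309 CPM in shCtrl replicate 3. HOXB6 had 3.62 and 12.2 CPM, against 0 counts. Some genes outside the HOX clusters showed the same presence: CDKN2A had 7.11 and 24.1 CPM and IRS4, an insulin receptor substrate, 7.31 and 22.3 CPM, against 0 counts for both in shCtrl replicate 3. The 4 markers of embryonic or kidney lines summed to 17.9 CPM in shHDAC6-1 replicate 3 and 55.3 CPM in shHDAC6-2 replicate 3. LIN28B among them, an RNA-binding protein of early development, had 0.0233 and 0.713 CPM. That is 0.0162% and 0.513% of its mean in replicates 1 and 2 of the same hairpin, under the lowest of the 20 HOX genes. The part of these other genes in the HOX levels was not tested, and with 1 library a group these values have no replicate check.

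**Figure D5:**
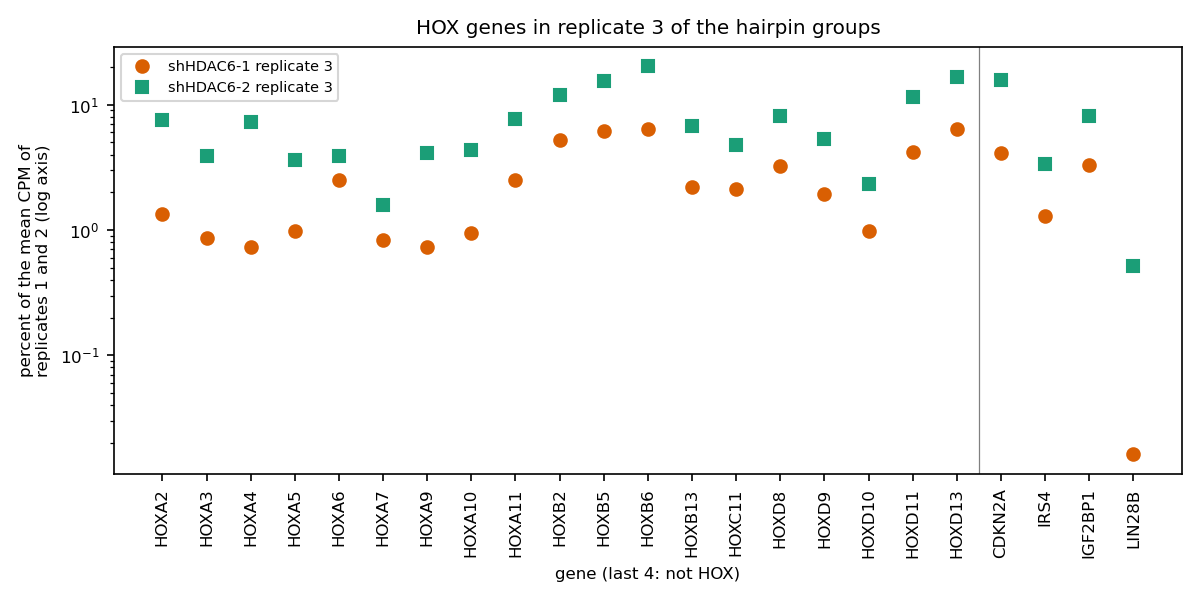
Level in replicate 3 of shHDAC6-1 (circles) and shHDAC6-2 (squares) as a percent (log axis) of the mean CPM of replicates 1 and 2 of the same hairpin, for 19 HOX genes near silent in shCtrl replicate 3 and for 4 other genes. The circles of the HOX genes lie between 0.725% and 6.41% and the squares between 1.60% and 20.2%, with each square above its circle.

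The 10 genes that shCtrl replicate 3 did express went both ways: HOXC6, HOXC8, HOXC13, HOXD3 and HOXD4 were lower in both HDAC6 hairpin libraries of replicate 3, HOXB3, HOXB9 and HOXC5 were higher in both, and HOXC10 and HOXD1 lay on either side. HOXD3 had 5.19 CPM in shHDAC6-1 replicate 3 and 6.21 CPM in shHDAC6-2 replicate 3, against 12.2 CPM in shCtrl replicate 3. HOXD4 had 5.99 and 7.62 CPM, against 12.7 CPM, and HOXC8 had 0.803 and 1.26 CPM, against 3.25 CPM. HOXC10 had 2.77 and 3.45 CPM, against 3.12 CPM. HOXB9 had 24.9 and 73.4 CPM, against 5.77 CPM, which places shHDAC6-2 replicate 3 close to the 84.8 and 85.3 CPM of its replicates 1 and 2.

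The genes that hold and read the HOX code were counted in the same fits, and all their members are compared as lists, by counts and medians beside all genes. With Nexturastat A, 6 of 11 PRC2 genes tested were lower and none higher (median log2 fold change -0.46, against 0.03 over all genes): PHF19, an accessory subunit, had 14.4 and 31.5 CPM, against 92.9 and 91.7 CPM in Ctrl (-2.09 ± 0.40, edgeR adjusted p = 0.0175), and SUZ12, a core subunit, 75.5 and 91.4 CPM, against 135.6 and 142.5 CPM (-0.83 ± 0.14, adjusted p = 0.00589). The catalytic subunit EZH2 had 41.3 and 70.6 CPM, against 75.7 and 85.0 CPM, and was not called. In PRC1, 1 of 21 was higher and 4 lower (23.8% called, median -0.20), and in the trithorax and COMPASS list 1 of 22 was higher and 8 lower (40.9% called, median -0.44), among them PSIP1 (-0.93 ± 0.12), where 36.6% of all genes were called. Of 9 TALE cofactors, 3 were higher and 2 lower (median -0.07). MEIS3 had 24.4 and 26.7 CPM with Nexturastat A, against 15.02 and 11.5 CPM in Ctrl (0.86 ± 0.19, edgeR adjusted p = 0.013). Of 10 tested HOX inducers and retinoid genes, 3 were higher and 1 lower (median 0.09). The retinoic acid receptor RARB, whose ligand switches on head-side HOX genes in the embryo, had 4.29 and 2.00 CPM with Nexturastat A, against 0.399 and 0.309 CPM in Ctrl (3.05 ± 0.48, edgeR adjusted p = 0.00457). With HPOB and Tubastatin A, and with either hairpin over all 9 libraries, no member of these lists was called.

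Within replicates 1 and 2 of the hairpin experiment, 7 of 13 HOX inducers and retinoid genes were lower and none higher for shHDAC6-1, and 6 were lower and 1 higher for shHDAC6-2 (median log2 fold change -0.36 and -0.28, against -0.02 and 0.00 over all genes). Over all genes, 15.2% were lower for shHDAC6-1 and 13.2% for shHDAC6-2. The retinoic acid hydroxylase CYP26A1 had 1.35 and 1.56 CPM for shHDAC6-1 and 1.31 and 1.16 CPM for shHDAC6-2, against 3.64 and 3.43 CPM for shCtrl (-1.20 ± 0.27 and -1.42 ± 0.27, edgeR adjusted p = 0.00143 and 0.000303). ALDH1A1, which makes retinoic acid, fell by 0.68 ± 0.15 and 0.87 ± 0.15 on the log2 scale (edgeR adjusted p = 0.00168 and 0.000163). In PRC2, 2 of 11 and 1 of 11 were lower and none higher, in PRC1 4 of 21 were higher and 3 lower with shHDAC6-1 and 3 higher and 1 lower with shHDAC6-2, and in the trithorax list 4 of 22 were higher and 6 lower with shHDAC6-1 and 5 higher and 4 lower with shHDAC6-2. The share called was 33.3% and 19.0% in PRC1 and 45.5% and 40.9% in the trithorax list, against 30.5% and 27.6% over all genes. PHC2, a PRC1 subunit, fell by 1.28 ± 0.12 and 1.21 ± 0.12 on the log2 scale (edgeR adjusted p = 6.14e-08 and 1.49e-07). CDX2, the caudal factor that switches on HOX clusters in the hindgut, had 40.6 and 45.3 CPM in shCtrl replicates 1 and 2 and 0 counts in shCtrl replicate 3, DMSO and Ctrl. It had 5.26 CPM in shHDAC6-1 replicate 3 and 9.02 CPM in shHDAC6-2 replicate 3.

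Some long noncoding RNAs of the clusters were detected in shCtrl replicates 1 and 2 and not in shCtrl replicate 3 or DMSO. HOTAIRM1, in the HOXA cluster, had 27.5 and 26.7 CPM in shCtrl replicates 1 and 2, and HOTAIR, in the HOXC cluster, 15.03 and 13.4 CPM, with 0 counts of both in shCtrl replicate 3 and DMSO. HAGLR, beside HOXD1, had 22.2 and 22.3 CPM in shCtrl replicates 1 and 2, 20.02 CPM in shCtrl replicate 3, 15.3 to 16.8 CPM in DMSO and 27.6 and 26.9 CPM in Ctrl. HAGLR rose with Nexturastat A, to 46.6 and 50.5 CPM, against these 27.6 and 26.9 CPM in Ctrl (0.74 ± 0.14, edgeR adjusted p = 0.00734), while HOXD4 in the same cluster fell. Of the 4 cluster transcripts tested, the other one called was HOXC-AS2, with 0.0172 and 0.0842 CPM, against 0.349 and 0.780 CPM in Ctrl (-3.50 ± 0.83, edgeR adjusted p = 0.017). HOXC-AS2 passed the filter on low counts only through the Ctrl libraries, so its direction was fixed in advance. HOTAIRM1 was called lower with both hairpins in replicates 1 and 2 (-0.37 and -0.48), as was HOXB-AS3 (-0.62 and -0.56). Of 17 cluster transcripts tested there, 3 were lower with shHDAC6-1 (17.6%) and 2 with shHDAC6-2 (11.8%), and none was higher. These shares lie near the 15.2% and 13.2% lower over all genes. Of 20 genes that flank the clusters, 15 had at least 1 CPM in every control library: SKAP2, beside HOXA, had at least 42.1 CPM, MTX2, beside HOXD, at least 47.6 CPM, and CALCOCO2, near HOXB, at least 66.7 CPM in each control library.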

How the data were processed

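Each library has a deposited table of raw read counts per gene symbol. The submitters' processing notes name Trim Galore 0.6.7, STAR 2.7.9a, featureCounts 2.0.3 and DESeq2 1.30.1 and the build GRCh38 as used by the authors to make these counts. The sources used here do not give the annotation, strand setting or treatment of reads in overlapping genes, so counts of neighbouring HOX genes may be shared or lost. Total RNA went into a Vazyme kit, per the labels' protocols.

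CPM is the count divided by the library total. Fits were made with edgeR 4.0.16 in R 4.3.3 over the whole table: Nexturastat A with Ctrl, HPOB and Tubastatin A with DMSO, all hairpin libraries, hairpin replicates 1 and 2, and DMSO with Ctrl. Each used TMM scaling, a filter on low counts (filterByExpr with the group, at least 10 counts and a total of 15), robust dispersions, the quasi-likelihood F test and Benjamini-Hochberg adjustment over all genes tested. The fits were tested on simulated data. Exon lengths and GC content come from GENCODE 29 (23899 symbols matched), promoter stretches from RefSeq.

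The HOX genes, the gene lists and the split of the hairpin replicates were chosen with earlier results of these data known. Values per library are given for HOXD10, for expressed genes of each control set, and for called genes (beyond 8 called, the 4 highest and 4 lowest fold changes; others named were chosen after their values were seen). Where none was called, the 3 with the lowest p are given. Alternatives were DESeq2 size factors, its Wald test (1.42.0), no filter, a replicate block, groups fitted alone, leaving out each library, and, for levels, a limit of 0.5 CPM and TMM factors over all libraries. Removal of GC and length trends (splines, 3 degrees of freedom) was added after seeing the data. Residuals of libraries with the same replicate number correlated at 0.468 to 0.938 (9 pairs) over all hairpin libraries. Libraries of different number correlated at -0.906 to 0.859 (18 pairs), and replicates 1 and 2 of different groups about as highly as those of the same number. The numbers were therefore not shown to pair libraries, and fold changes over 9 libraries are from the fit without the replicate block. For libraries of the same number in hairpin replicates 1 and 2 the range was -0.046 to 0.161, for HPOB and Tubastatin A -0.155 to 0.198, and for Nexturastat A 0.105, which gave no pairing. No replicates repeated the same library within sampling noise. Some genes counted in the totals are not reported here by name.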

Additional observations from a re-analysis of the deposited data

Results flagged for a closer look

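Many HOX genes of the HDAC6 hairpin libraries stood on opposite sides of shCtrl by replicate. Of 36 HOX genes considered, 17 were lower with shHDAC6-1 than with shCtrl in replicates 1 and 2 and higher in replicate 3, and with shHDAC6-2 the number was 19. They include HOXD8 to HOXD11, HOXB2 to HOXB7, HOXB9, HOXB13 and HOXC11 for both hairpins. HOXA9, HOXA11, HOXB5, HOXB6, HOXB13, HOXC11 and HOXD8 to HOXD11 had 0 counts in shCtrl replicate 3, so any read made them higher there. The share of all genes that meet the same rule was not computed. HOXB9 in replicate 3 had a ratio to shCtrl of 4.31 with shHDAC6-1 and 12.7 with shHDAC6-2. These differences between replicates were not tested, since replicate 3 is 1 library per group.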

How the results depend on the processing

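The number of HOX genes called was 7 with Nexturastat A, and 0 to 8 when 1 library was left out (1 without Ctrl replicate 1 and 0 without Ctrl replicate 2). It was 17 with shHDAC6-1 in replicates 1 and 2, and 9 to 18 when 1 library was left out (9 without shHDAC6-1 replicate 2). The cause of these moves was not tested beyond the smaller number of libraries. DMSO expressed 6 HOX genes at 1 CPM and 11 at 0.5 CPM. Of 124 counts under alternatives, 120 stayed within 1.5 times the reported one. The 120 include every count for HPOB, Tubastatin A and the hairpins over 9 libraries, which was 0 throughout. Almost no gene of any kind was called in those fits, so their agreement says little about how stable the calls are. For single called genes, 231 of 283 fold changes with 1 library left out and 296 of 315 under other settings kept their call, and none of these turned its direction; uncalled ones did in places, such as HOXB9 with Tubastatin A once GC and length trends were removed. The replicate block moved no count of calls by over 1.5 times: it gave 0 calls with either hairpin over 9 libraries, as without it, 18 and 16 in replicates 1 and 2, and 7 with Nexturastat A. The block over 9 libraries turned the sign of 13 fold changes with shHDAC6-1 and 17 with shHDAC6-2, none of them called. Depth limits genes near 0 counts, and 2 libraries per group limit the Nexturastat A and replicate 1 and 2 fits.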
